A study of Arabidopsis thaliana with 7 samples.

Results

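The comparison described here sets rosettes of the WRKY18/40 T-DNA double knockout against rosettes of the WRKY18 T-DNA knockout, both after Pst-DC3000, over all 22746 non-control probe sets of the 22810 on the array. It shows what differed when WRKY40 was missing in plants that already lacked WRKY18. The 2 arrays were chosen by their labels from the 7 of the series, every probe set but the manufacturer's 64 controls was compared, and no measured value entered the choice.

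All plants were 14 days old Arabidopsis thaliana of the Col-0 background as far as the labels name one, and RNA was taken from entire rosettes. Besides the double knockout and the WRKY18 knockout, the groups used here were Col-0 wild type after Pst-DC3000, Col-0 after the MgCl2 mock treatment, and T-DNA knockouts of WRKY40, of WRKY53 and of WRKY60 after Pst-DC3000. The WRKY60 knockout served for controls, for 2 probe sets and in an alternative reference. Its array also entered the low signal limit, the scalings and the choice of 1 probe set per gene, which used all 7 arrays. Pst-DC3000 is a strain of the bacterial leaf pathogen Pseudomonas syringae. Each group had 1 array, so no difference below has a replicate check, no p-value was computed, and genotype cannot be told apart from plant or array. The time after treatment, the allele names and the number of independent lines are not given in the sources used here.

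WRKY proteins are plant transcription factors that bind W-box elements in promoters, and many of them switch defence genes on or off during infection. WRKY18, WRKY40 and WRKY60 form the group II-A subfamily, can bind one another, and act partly redundantly. In Arabidopsis, plants lacking both WRKY18 and WRKY40 are known for altered resistance to several pathogens, and the pair is best known for limiting defence gene expression.

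The 2 arrays were alike in overall signal. A low limit of 22.1, the floor, stands for the dim end of the arrays, and the 13361 probe sets whose signals averaged at least that over the pair are called measured from here on. Their median log2 ratio was 0.01, the SD of that ratio was 0.40, and 87.6% of these probe sets lay within 1.5-fold. The bacterial and phage hybridisation controls were somewhat dimmer on the double mutant array, with a median log2 ratio of -0.36 over 18 probe sets. The 25S ribosomal RNA control had a signal of 2947 on the double mutant array and 1188 on the wrky18 array, against 1434 to 2374 on the wild-type, mock, wrky40 and wrky53 arrays. The part of these differences in the results below was not tested. The wrky60 array stood apart in its controls, with a hybridisation control median of 1069 against 108 to 186 elsewhere. It was left out of the reference medians below, except in 1 alternative setting, but did enter the floor and the scalings. Among tissue markers RCA, the activase of the leaf's carbon-fixing enzyme Rubisco, had signals of 2735 and 3523 on the pair, and the root hair expansin gene EXPA7 lay below the floor at 8.17 and 1.73. The flower and seed markers had no named probe set.

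The annotation used here assigns 0 probe sets to WRKY18 or WRKY40 alone, so neither knockout could be checked by name. The largest difference between the 2 arrays was nevertheless in 1 unnamed probe set, 261892_at. Its signal was 16.5 on the double mutant array and 288 on the wrky18 array, at least 13.1-fold lower in the double mutant. It was 11.7 on the wrky40 array, and 310.4, 299, 231 and 230.0 on the wild-type Pst, wrky53, wrky60 and mock arrays. It was thus low on both arrays labelled as lacking WRKY40 and bright on all 5 others. It was the only probe set at least 4-fold lower on the double mutant and wrky40 arrays than on each of the wild-type, mock, wrky18 and wrky53 arrays. A second unnamed probe set, 253485_at, was the only one with the matching pattern for the double mutant and wrky18 arrays, with signals of 20.3 and 1.83 there and 124 to 328 on the other 5. Both were singled out after their values were seen, and the tables used here give them no gene.

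More probe sets were higher than lower in the double mutant. After signals below the floor were set to it, 213 probe sets, or 0.936%, had at least 2 times the wrky18 signal on the double mutant array. Another 48, or 0.211%, differed 2-fold or more in the opposite direction. Differences were moderate: 29 of the higher and 5 of the lower probe sets reached 3-fold, and 7 and 1 reached 4-fold. The wrky18 signal lay below the floor in 39 of the 213, and the double mutant signal in 11 of the 48, so that their folds are lower bounds. Higher calls were most frequent, at 2.22%, among probe sets with a mean signal of 2 to 4 times the floor. They made up 1.67% at 1 to 2 times, 1.55% at 4 to 8 times, 1.18% at 8 to 32 times and 0.455% above that. Lower calls made up 0.732%, 0.433%, 0.129%, 0.230% and 0.114% of these classes, from the dimmest to the brightest. Both kinds thus had their largest shares below 4 times the floor. Among the 10 pairs of Pst arrays without wrky60, the count of 261 in either direction, or 1.15%, was exceeded by 3 pairs, all with the wrky53 array. The lowest count was 43, or 0.189%, for wild type and wrky40.

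**Figure D1:**
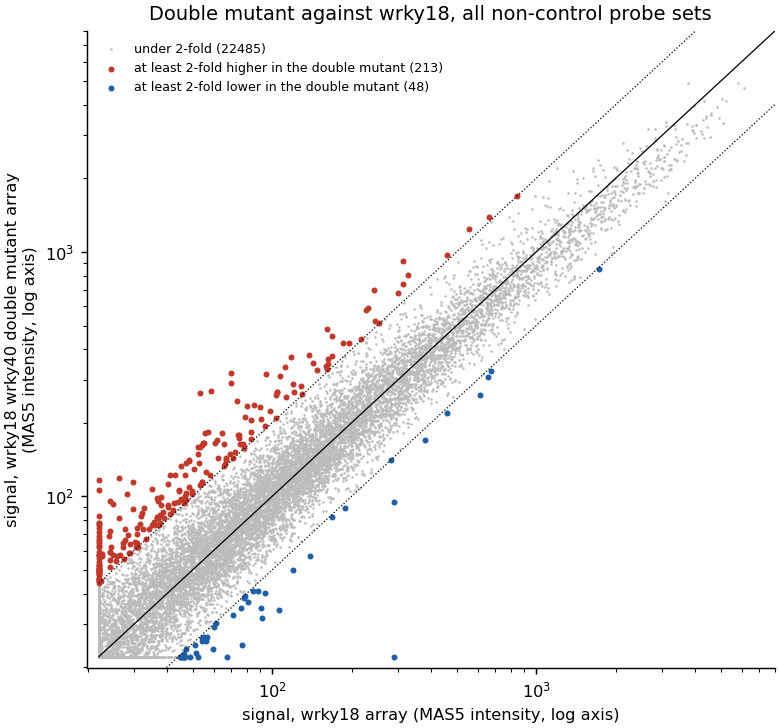
Signal of every non-control probe set on the wrky18 array (horizontal) and the double mutant array (vertical), both as MAS5 intensity on log axes, with values below the floor of 22.1 drawn on it. The solid line marks equal signal and the dotted lines 2-fold; 213 probe sets lie at or above the upper dotted line and 48 at or below the lower one, and the blue point far to the right on the bottom edge is 261892_at.

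The higher probe sets had a median signal of 101.9 on the double mutant array, 42.1 on wrky18, 50.5 on wild-type Pst, 60.1 on wrky40, 45.4 on wrky53 and 70.1 on mock, so that the wrky18 level was near the wild-type level and the double mutant stood above. Among the 13286 genes with a named probe set, 7073 were measured, and of these 99, or 1.4%, were higher and 25, or 0.353%, lower. Of these, 76 and 25 held at 2-fold under all 4 scalings of the arrays tried (the values as deposited, quantile normalization, median centring and cyclic loess). The last 3 called 81 and 32, 87 and 37, and 96 and 32 genes, so they tested the lower genes little. Far fewer genes, 42 and 4, were called with a floor at the 60th percentile of signal. Adding the floor value to each signal gave 53 and 7. Of the 99, 80 carry only a locus code in the gene table and so cannot be given a function here. Among the named genes AT2G35730 had the highest ratio: its signal was 117 on the double mutant array, 20.6 on wrky18, 25.1 on the wild-type Pst array, 41.3 on wrky40, 8.997 on wrky53 and 5.24 on mock, and the double mutant was at least 5.29-fold above wrky18. AT1G26380, entered as FOX1 in the list of camalexin and indole genes, had 291 on the double mutant array, 70.0 on wrky18, 28.5 on wild-type Pst, 76.0 on wrky40, 38.3 on wrky53 and 117 on mock. Its ratio to wrky18 was 4.16-fold, and both single mutants lay above the wild-type Pst array.

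Of the genes with a symbol, UGT73B4 had the highest ratio. UGT73B4, which encodes an enzyme that attaches sugars to small molecules, had signals of 82.7 on the double mutant array and 20.7 on wrky18, at least 3.75-fold apart, and 19.3 to 35.3 on the wild-type Pst, wrky40, wrky53 and mock arrays. Its neighbour on the chromosome and in sequence family, UGT73B5, had 83.2 and 31.9, a 2.60-fold difference, with 24.99 to 40.2 on wild-type Pst, wrky40 and wrky53, and 69.5 for mock. CML38, a calmodulin-like calcium sensor gene, had 92.6 and 25.02, a 3.70-fold difference. It had 41.4 on wild-type Pst, 49.1 on wrky40, 69.4 on wrky53 and 42.4 on mock, so that here the wrky18 array was low as well as the double mutant array high.

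Prx37 and AT4G08780 are also neighbours. Prx37, a gene of the secreted peroxidases that act in the cell wall, had 682 on the double mutant array, 298 on wrky18, 221 on wild-type Pst, 323 on wrky40, 157 on wrky53 and 152 on mock, a 2.29-fold difference between the first pair. AT4G08780 had 107 and 34.9, a 3.07-fold difference, with 16.7 to 60.4 on the other 4 arrays. The 3 neighbouring pairs in which both genes were called higher were UGT73B4 with UGT73B5, Prx37 with AT4G08780, and AT5G52750 with AT5G52760. Of 5882 pairs of neighbouring named genes in all, 97 had at least 1 called higher. Members of pairs like these 3 can have similar sequences, so a shared probe response cannot be told apart from a shared change, although all their probe sets are of the type designed for 1 transcript.

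Further named genes at 2-fold covered several roles. OSM34, an osmotin-like defence protein gene, had a signal of 49.1 on the double mutant array, 6.39 on wrky18 and 0.925 to 2.11 on wild-type Pst, wrky40, wrky53 and mock, and was at least 2.23-fold higher than in wrky18. Of these 6 arrays only that of the double mutant was above the floor. CCOAMT, a methyltransferase gene of phenylpropanoid metabolism, had 66.1 against 27.8, with 15.2 to 38.6 on the other 4. GAT1_2.1, a glutamine amidotransferase gene, had 62.1 against 24.6, but its second, dimmer probe set lay below the floor on both arrays, as did the second probe set of AT1G77890. TAAC, an adenine nucleotide carrier gene of the chloroplast's thylakoids, had 267 against 122, and scpl31, a serine carboxypeptidase-like gene, 73.5 against 34.1. MSRB3, a methionine sulfoxide reductase gene, had 83.7 against 37.5. In MSRB3 the double mutant value lay within the 55.4 to 98.2 of the wild-type Pst, wrky40, wrky53 and mock arrays, and wrky18 was the low one. All genes with a symbol that held 2-fold under the 4 scalings, 15 higher and 2 lower, were added to the named genes after values were seen.

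**Figure D2:**
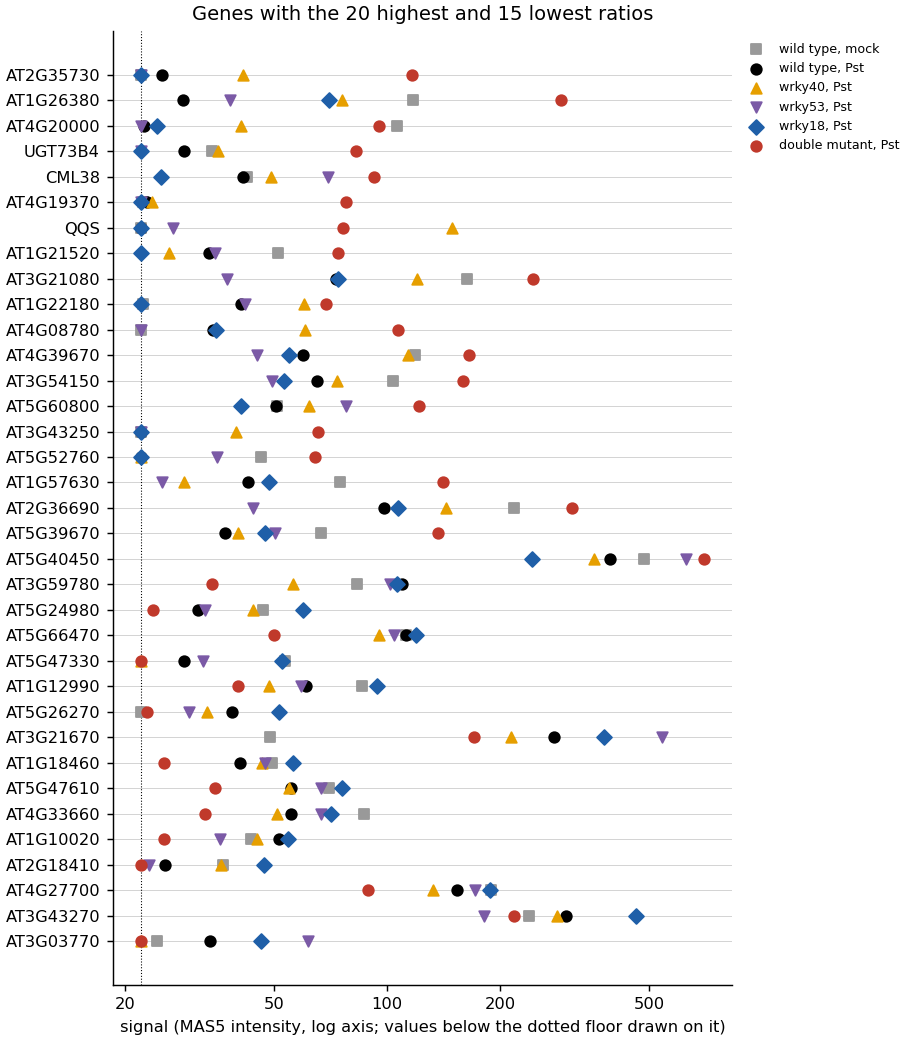
Signal (MAS5 intensity, log axis) of the genes with the 20 highest and, from AT3G59780 down, the 15 lowest log2 ratios of double mutant over wrky18, on 6 arrays, 1 point per array. In the upper rows the double mutant (red circles) lies to the right of wrky18 (blue diamonds), which mostly sits near the wild-type Pst array (black); QQS is brightest on wrky40.

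The 48 lower probe sets had a median signal of 29.8 on the double mutant array, 73.5 on wrky18 and 49.5 on wild-type Pst. Among the named genes AT3G59780 had the lowest ratio, with 34.1 on the double mutant array, 106 on wrky18, 109 on wild-type Pst, 56.0 on wrky40, 102 on wrky53 and 83.4 on mock, a 3.12-fold difference. Both arrays lacking WRKY40 were therefore below the others. AT5G66470 had 50.1 against 119.6, a 2.39-fold difference, with 95.1 to 112 on the other 4. AT3G21670, listed with the synonym NPF6.4 in the nitrate and peptide transporter family, had 170.5 against 379, a 2.22-fold difference. It had 279 on wild-type Pst, 215 on wrky40, 541 on wrky53 and 48.8 on mock, so the double mutant value lay between mock and wild-type Pst. TBL26, of a family whose members acetylate cell wall polysaccharides, had 140.2 against 282, a 2.01-fold difference, with 219 on wild-type Pst, 169.7 on wrky40, 531 on wrky53 and 22.9 on mock. AZG1, a purine transporter gene, had 29.2 against 60.002. It lay between 25.03 and 39.6 on the wild-type Pst, wrky40, wrky53 and mock arrays, so that the wrky18 array was the high one.

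Which of the 2 arrays stood apart was read against the median of the wild-type Pst, wrky40 and wrky53 arrays. Of the 213 higher probe sets, the double mutant was at least 2-fold above that median in 120, or 56.3%. The wrky18 array was at least 2-fold below it in 16, or 7.51%, both stood apart in 0, and neither reached 2-fold in 77. Because signals were raised to the floor, no array could lie 2-fold below a median under 44.2, while nothing limited distances above it. The 120 and the 16 are therefore not on an equal footing, and the 16 depends on the floor, as the last section shows. Over all non-control probe sets the double mutant was 2-fold above the median in 0.892% and wrky18 2-fold below it in 0.299%. These shares share both arrays with the choice of the 213 and so only describe it. The double mutant was the highest of the 5 Pst arrays without wrky60 in 189 of the 213, and wrky18 the lowest in 86. These ranks also follow in large part from the choice of the 213 and only describe it. Of the 48 lower probe sets, the double mutant was 2-fold below the median in 6 and wrky18 2-fold above it in 3, while 39 reached 2-fold in neither. Over all non-control probe sets both of these shares were 0.0967%. With this floor the lower calls were thus mostly made of 2 smaller distances on opposite sides. The same limit from the floor applied to the 6.

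The 16 probe sets with a low wrky18 array include 10 named genes. BGLU33, a beta-glucosidase gene, had 56.1 on wrky18, 125 on the double mutant, 143 on wild-type Pst, 134 on wrky40, 175 on wrky53 and 144 on mock. AT2G01100 had 89.6 on wrky18, 233 on the double mutant and 161 to 238 on the other 4. In both, the double mutant lay close to the wild type and wrky18 was low. These 2 genes were picked for display after their values were seen. The count of 16 was 10 with quantile normalization or median centring.

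Loss of WRKY40 could also be examined with WRKY18 present, by comparing the wrky40 array with the wild-type Pst array, which shares no array with the comparison above. Far fewer probe sets differed there: 43 of all non-control probe sets, or 0.189%, reached 2-fold in either direction, against 261, or 1.15%, for the double mutant and wrky18. Over measured probe sets only, 0.142% reached 2-fold above the wild type and 0.172% reached it below. The 213 probe sets higher in the double mutant leaned the same way at a smaller size. Their median log2 ratio of wrky40 over wild type was 0.22, against 0.00 over all measured probe sets, and 152 of them, or 71.4%, were above 0, against 48.8% of all measured probe sets. At 2-fold 5 of the 213 were higher and 0 lower. The 48 lower probe sets had a median of -0.26, with 3 at least 2-fold lower and 0 at least 2-fold higher. Of the 48, 37 were below 0, or 77.1%, against 49.9% of all measured probe sets. Across 13431 probe sets averaging at least the floor over the 4 arrays, the 2 ratios had a Pearson r of 0.17 and a Spearman rho of 0.14, given as a description. Probe sets are not independent, and each ratio rests on 1 array a side.

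The 8 probe sets at least 2-fold the same way in both comparisons included 3 named genes, all higher. QQS, an orphan gene that affects starch and protein content, had 76.2 on the double mutant array, 11.8 on wrky18, 149.5 on wrky40, 21.6 on wild-type Pst, 27.0 on wrky53 and 12.4 on mock. It was at least 3.45-fold higher in the double mutant than in wrky18 and at least 6.77-fold higher in wrky40 than in the wild type. AT1G26380 differed 4.16-fold and 2.66-fold. AT2G28570 had 48.8 on the double mutant array and 21.8 on wrky18, at least 2.21-fold apart, and 62.3 on wrky40 and 27.6 on wild-type Pst, 2.26-fold apart. Its mock signal of 49.9 was close to that of the double mutant. QQS and AT2G28570 were brighter on the wrky40 array than on the double mutant array. The 3 lower probe sets, among them 261892_at, carry no named gene. No probe set was 2-fold in opposite directions.

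The higher probe sets leaned towards ones with less signal after Pst in the wild type. The wild-type Pst array was compared with the mock array, which again shares no array with the double mutant and wrky18 pair. It does share the wild-type Pst array with the wrky40 comparison above, on opposite sides of the ratio, so the medians of 0.22 and -0.30 are not independent of each other. Of the 213, 41, or 19.2%, were at least 2-fold lower after Pst, against 2.01% of all measured probe sets. Only 5, or 2.35%, were at least 2-fold higher, against 2.37%. Their median log2 ratio of Pst over mock was -0.30, against 0.00 over all measured probe sets. Of the 213, 137 were below 0, or 64.3%, against 48.0% of all measured probe sets. The 48 lower probe sets had a median of -0.01, with 1 at least 2-fold lower and 4 at least 2-fold higher. Over 13416 probe sets the 2 ratios had a Pearson r of -0.10 and a Spearman rho of -0.06, so that most probe sets held little of this pattern.

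Of the 99 higher named genes, 25 were at least 2-fold lower after Pst in the wild type and 1 reached 2-fold above mock, against 1.91% and 1.92% of measured named genes. CYP71B23, a cytochrome P450 monooxygenase gene, had 687 on mock, 272 on wild-type Pst, 231 on wrky18, 348 on wrky40, 98.5 on wrky53 and 589.8 on the double mutant. The double mutant was 2.55-fold above wrky18 and close to mock. CYP71B24, of the same family, had 93.7 on mock, 26.9 on wild-type Pst, 54.1 on wrky18, 39.9 on wrky40, 13.1 on wrky53 and 114 on the double mutant, a 2.102-fold difference that fell just short of 2-fold under 1 or more other scalings (log2 ratio 0.99 at the lowest). AT1G19020 had 527 on mock, 173 on wild-type Pst, 227 on wrky18, 306 on wrky40, 135 on wrky53 and 579.8 on the double mutant. AT4G01700 had 1019.5 on mock, 395 on wild-type Pst, 312 on wrky18, 496 on wrky40, 217 on wrky53 and 741 on the double mutant. In each of these 4 genes wrky53 was the lowest array and the double mutant the highest of the 5 Pst arrays. In 15 of the 25 genes the double mutant signal was above the mock signal, and in the other 10 it lay below. AT1G19020 and AT4G01700 were chosen for display after their values were seen. The 1 gene that went the other way in the wild type was AT4G16260, with 38.8 on mock, 153 on wild-type Pst, 327 on wrky18, 296 on wrky40, 115 on wrky53 and 801 on the double mutant.

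**Figure D3:**
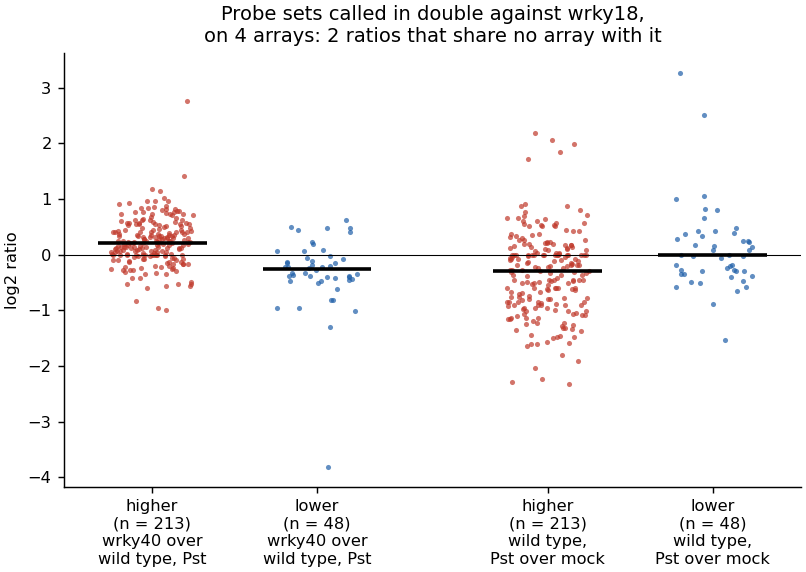
Log2 ratios of wrky40 over wild type after Pst (left) and of wild-type Pst over mock (right) for the 213 probe sets higher and the 48 lower in the double mutant than in wrky18; 1 point per probe set, bars mark medians, and both ratios use the wild-type Pst array. The higher probe sets have medians of 0.22 and -0.30 and the lower ones -0.26 and -0.01; the lowest point on the left is 261892_at.

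Gene lists were described by their measured members, beside a median log2 ratio of 0.01 over the 7073 measured named genes and the shares of 1.4% and 0.353% given above. Only 30 of the 231 genes in the 13 lists given by locus had a named probe set, and 15 of all 30 lists, families by symbol included, had the 3 measured members needed for a summary. These few members do not stand for their pathways. For pattern-triggered immunity, the response to conserved microbial molecules, 0 listed genes reached 2-fold. The 6 measured members had a median of 0.27, with 5 above 0. The ubiquitin ligase gene PUB23 had 341 in the double mutant and 243 in wrky18, and PUB22, which like PUB23 dampens immune signalling, had 422 and 364. The receptor kinase relay gene BIK1 had 355 and 303, and the transcription factor gene WRKY22 149.7 and 152.

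The 3 measured salicylic acid genes were all above 0, at log2 ratios of 0.25 to 0.75 with 0 at 2-fold. AT5G52810, entered as SARD4, a gene for making the systemic immunity signal pipecolic acid, had 146 against 86.8. SAG101, a partner of the immune regulator EDS1, had 36.1 against 28.5, and the glutaredoxin gene GRX480 102 against 85.8. In the ethylene list the defensin genes PDF1.2b and PDF1.2 had 583 against 344 and 305 against 184, log2 ratios of 0.76 and 0.73, while EIN3, the main ethylene-response transcription factor gene, had 463.5 against 583. None reached 2-fold. The jasmonate list had only 2 named members and was not summarised. JMT, which methylates jasmonic acid, had 219.5 against 114, with 162 on wild-type Pst, 210.3 on wrky40, 223 on wrky53 and 13.7 on mock, so that wrky18 was the low Pst array. BSMT1, which methylates salicylic acid, had 99.3 against 71.2. Both were chosen after their values were seen.

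Among the 6 measured WRKY genes 0 reached 2-fold and the median was 0.13. WRKY6, a regulator of senescence and defence, had the highest ratio of the 6, with 240.2 in the double mutant, 130.1 in wrky18, 110.2 on wild-type Pst, 149 on wrky40, 64.0 on wrky53 and 189 on mock, a log2 ratio of 0.88. WRKY47 had 119.8 against 121, and ZAP1 (WRKY1) 111 against 80.4. Of 10 measured cytochrome P450 genes, 2 were at least 2-fold higher, CYP71B23 and CYP71B24, and 0 lower, with a median of 0.28. CYP71B6 had 306 against 165 and CYP71B22 402 against 266. Of 32 measured UDP-glycosyltransferase genes, UGT73B4 and UGT73B5 were higher and 0 lower. The family median was 0.00, with 16 members on each side of 0. Of 4 bright members, UGT87A2 had 993 against 803, and UGT74B1, of glucosinolate synthesis, 897 against 712, log2 ratios of 0.31 and 0.33. UGT72E1 had 564 against 535, and UGT76E12 518 against 604, a log2 ratio of -0.22. All 4 measured calmodulin-like genes were above 0, with CML42 at 137 against 99.5 and CML41 at 44.8 against 28.3.

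The 5 measured glutathione transferase genes had a median of -0.13, with 0 at 2-fold; GSTU20 had 404 against 509. The 7 expansin genes, which loosen cell walls, had a median of -0.25, with 0 at 2-fold. In the cold and drought list COR15A, a chloroplast cold-protection gene, had 778.5 against 1387, a log2 ratio of -0.83, and the zinc finger gene STZ 834 against 563. The 5 U-box genes had a median of 0.21 and the 8 beta-glucosidase genes 0.10, with BGLU33 the 1 member at 2-fold. The 4 measured reference genes ranged from 0.00 to 0.32, with PEX4 at 303 against 279.

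**Figure D4:**
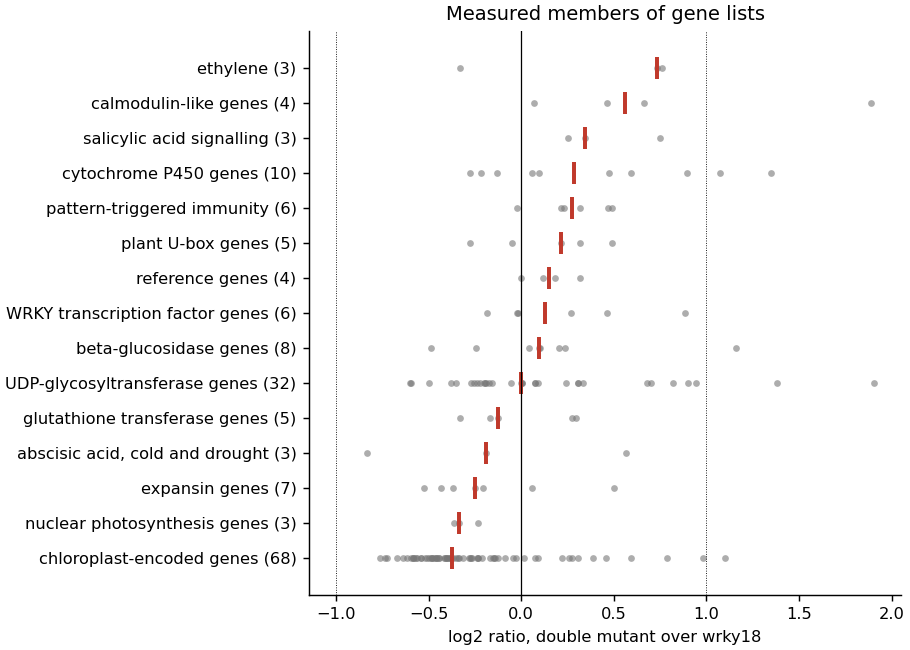
Log2 ratio of double mutant over wrky18 for every measured member of the 15 summarised lists (grey points, 1 per gene; number of members in brackets), with list medians as red bars and 2-fold as dotted lines. Medians run from -0.37 for chloroplast-encoded genes to 0.73 for the 3 ethylene genes, and most members lie inside 2-fold.

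Chloroplast-encoded genes were the largest list and mostly lower in the double mutant than in wrky18. The chloroplast genome encodes part of the photosynthetic complexes and part of the machinery that expresses them. Of all 7073 measured named genes, 3473 were below 0 and 3600 above. Of the 68 measured chloroplast genes, 55 were below 0 and 13 above, with a median log2 ratio of -0.37 and a range from -0.76 to 1.098. None was 2-fold lower, and rpl14, a ribosomal protein gene, was 2-fold higher. The direction held under the other scalings at a smaller or similar size, with 49 below 0 and a median of -0.25 after quantile normalization, 56 and -0.44 after median centring, and 50 and -0.20 after cyclic loess.

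Of the pair, the wrky18 array was the one further from the wild type, as read from the deposited values only. Over wild-type Pst the chloroplast list had a median of 0.41 on wrky18 and 0.06 on the double mutant, which share that reference. The wrky40 median over the same reference was 0.07. These medians over wild-type Pst were not recomputed under the other scalings. All 10 genes of the NADH dehydrogenase-like complex, which carries electrons around photosystem I, were lower in the double mutant, from -0.76 to -0.38, and all 5 photosystem I genes were, from -0.60 to -0.41. These 2 groups kept every member below 0 under the 4 scalings. psaJ had 3383 in the double mutant, 5121 in wrky18, 3523 on wild-type Pst, 4333 on wrky40, 3045 on wrky53 and 3432 on mock. Of 15 photosystem II genes 13 were below 0, with a median of -0.38, and psbM, at 4920.4 against 3761, and psbN, at 69.4 against 40.2, were above. The ATP synthase genes had a median of -0.30 that shrank to -0.04 after quantile normalization and -0.03 after cyclic loess.

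The 14 chloroplast ribosomal protein genes went both ways, 7 above and 7 below 0, with a median of 0.03 that was 0.14 after quantile normalization, -0.03 after median centring and 0.17 after cyclic loess. rpl33 had 1328 in the double mutant, 672 in wrky18 and 1366 to 1727 on the wild-type Pst, wrky40, wrky53 and mock arrays, so that wrky18 was low where it was high for the photosystem genes. rpl14 had 523 in the double mutant, 244 in wrky18, 229.6 on wild-type Pst, 306 on wrky40, 378 on wrky53 and 503 on mock. Bright probe sets in general were lower in the double mutant: 509 other than the named chloroplast genes with a mean signal over 1000 had a median of -0.20, and 43 of the 68 chloroplast genes were above that signal. The part of brightness in the chloroplast result was not tested. The 3 measured nuclear photosynthesis genes were lower too, RCA at 2735 against 3523, SBPASE at 962 against 1217 and PRK at 1053 against 1236, with a median of -0.34 that was -0.12 after cyclic loess. psbN and rpl33 were chosen after their values were seen.

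**Figure D5:**
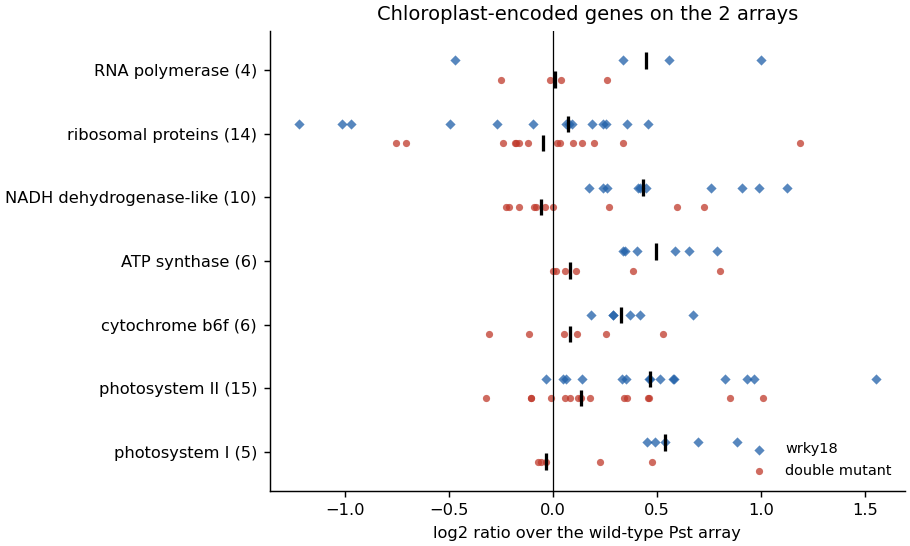
Log2 ratio over the wild-type Pst array for measured chloroplast-encoded genes of 7 complexes or groups (number of genes in brackets) on the wrky18 array (blue diamonds) and the double mutant array (red circles), with group medians as black bars. The wrky18 medians lie between 0.33 and 0.54 except for ribosomal proteins at 0.07, and the double mutant medians between -0.06 and 0.13.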

How the data were processed

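The authors deposited linear probe set intensities. MAS5, its version not given in the sources used here, is the tool named in the submitters' processing notes. Trimmed means (2%) of the 7 arrays lay within 5% of one another, so no further scaling was applied. The 40th percentile of non-control signal, averaged over the arrays, gave the floor of 22.1. Dimmer signals were raised to it before taking log2, so folds against them are lower bounds. With 1 array per group no test was possible, and 2-fold was the threshold for counting. Precision is limited by the number of arrays.

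Of the non-control probe sets, 13513 had 1 gene in the platform annotation, 503 several and 8730 none; 13436 matched the TAIR10.1 gene table, used for names and neighbours only. The brightest probe set per gene was kept, leaving 13286 genes.

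Members and lists were chosen with earlier results of these data known. Named genes were the 20 highest and 15 lowest past 2-fold under 4 scalings, up to 4 bright members per list, and genes shared with wrky40 against wild type, and the text leaves out some that have only a locus code. The ratio and counting functions were tested on simulated data. A planned search of promoters for W boxes was not run. Python 3.11.15, pandas 2.3.3, numpy 2.4.6, scipy 1.17.1, R 4.3.3 and limma 3.58.1 were used.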

Additional observations from a re-analysis of the deposited data

How the results depend on the processing

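The counts of probe sets depended on the floor. The 213 higher and 48 lower probe sets became 444 and 266 for a floor set at the 25th percentile, which put the higher share of calls at 62.5% against 81.6%, 91 and 12 at the 60th, and 110 and 17 when the floor value was added to each signal. With 1 probe set per named gene they were 99 and 25. They were 180 and 57, 188 and 72, and 212 and 61 under quantile normalization, median centring and cyclic loess, so higher calls outnumbered lower ones in every setting run. Of the higher probe sets, those with the double mutant apart were 56 at the 60th percentile, 69 with the added floor value and 48 by gene, against 120. Those with wrky18 apart were 94, 4 and 1 with the 3 floor alternatives in the same order (25th, 60th, added), 10 under quantile normalization, median centring and by gene, against 16. Of the lower ones, those with the double mutant apart were 51, 2 and 3 (25th, 60th, by gene), against 6, and those with wrky18 apart 58, 1 and 1 with the 3 floor alternatives, 5, 7 and 6 with the 3 scalings, 0 by gene and 5 with the wrky60 array in the reference, against 3. The cause was not tested. Of the 35 genes with the most extreme ratios 12 stayed at 2-fold for the 60th percentile floor and 23 with the added floor value, both of which compress dim genes. Of 15 list medians 10 were above 0, among them that of the UDP-glycosyltransferase genes at 0.0006, and 6 with no minimum signal. In that setting members below the floor on both arrays have a ratio of 0, which draws medians to 0. Correlations moved by less than 0.1. No paired analysis was possible because each group has 1 array. The replicates could not be left out in turn for the same reason.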
